A study of Gallus gallus with 8 samples.

Results

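The TGF-beta pathway of engineered chick muscle was followed through 10 genes chosen by name, which were the ligands *TGFB1*, *TGFB2*, and *TGFB3*, the latent ligand carrier *LTBP1*, the receptors *TGFBR1*, *TGFBR2*, and *TGFBR3*, and the intracellular mediators *SMAD2*, *SMAD3*, and *SMAD7*. Of these, 9 were found among the 17775 genes of the deposited count table, 8 under their own symbol and *SMAD2* as *SMAD2Z*, its RefSeq synonym for the copy on the Z chromosome. No row carried the symbol *SMAD7*, which is not analysed here, and the W-chromosome gene *SMAD7B* is given beside the members without being counted as one. All 9 genes passed the filter on low counts and were tested. The members, and the gene lists given further below, were chosen with earlier results of these data known. Their shares of calls are therefore a description and no separate support. Expression was measured by bulk RNAseq in 3 tissues at week 3 (day 21 of differentiation) and 5 tissues at week 1 (day 7). All tissues were grown on gelatin-transglutaminase hydrogels from primary thigh myoblasts of E10 chick embryos of no stated sex or strain and contained no motor neurons. The thigh isolates vary in myoblast purity, so other cells of the limb can be present, and whether both weeks came from the same isolation is not given in the sources used here, so isolation and week cannot be told apart.

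Animal cells secrete TGF-beta ligands in a latent form, bound to their own propeptide and tethered to the extracellular matrix by latent TGF-beta binding proteins such as LTBP1. Integrins, proteases, and thrombospondin release the ligand, which binds the type II receptor TGFBR2, and this in turn phosphorylates the type I receptor TGFBR1. The co-receptor TGFBR3, also called betaglycan, presents ligand and is particularly important for TGFB2. Activated TGFBR1 phosphorylates SMAD2 and SMAD3, which enter the nucleus with SMAD4, while SMAD7 is a feedback inhibitor of the receptor. In skeletal muscle the pathway is known to hold back myoblast differentiation and fusion and to drive matrix production by fibroblasts.

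The total estimated count was 15447904 to 18902561 per tissue at week 3 and 14368710 to 16545497 at week 1. Expression is given as the authors' FPKM-UQ, which in these files is the count plus 1 scaled by a single factor per tissue. Since this value ignores gene length, levels are compared between tissues and not between genes. A log2 fold change is that of week 3 over week 1, and a gene was called when its Benjamini-Hochberg adjusted p over the 14311 genes tested with edgeR's quasi-likelihood test was below 0.05. Tissue 1-1 was the highest or the lowest of the week 1 tissues for 9 of the 9 members (lowest for 5 and highest for 4). It passed the outlier criterion given below for only 2 members, *TGFB2* and *TGFBR2*. For *LTBP1* it was barely the highest, at 300.5 FPKM-UQ against 296.6 in tissue 1-4. Calls rose in number across the whole table without tissue 1-1, to 38.6% of the genes tested in that fit, and counts without it are read beside that share. In bulk RNA, fewer cells of a type and less RNA per cell cannot be told apart.

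Of the 9 genes, 3 rose and 2 fell between the weeks. At the same threshold 11.5% of all tested genes were higher and 12.0% lower at week 3, or 23.5% in either direction. The genes that rose were *LTBP1*, *TGFB3*, and *TGFB1*, on the side of the ligand, and the genes that fell were *TGFBR2* and *TGFBR3*, on the side of the receptor. *TGFB2*, *TGFBR1*, *SMAD2*, and *SMAD3* were not called. Without tissue 1-1, 6 of the 9 were called, *TGFB2* being added, beside 38.6% of all genes. The weeks were fully separated in FPKM-UQ for the 5 called genes and overlapped for the other 4, against 28.6% of all genes with values that did not overlap. Applying the study's own thresholds (p below 0.05 before adjustment, and over 1.5-fold) to the edgeR fit called 3 members, *LTBP1*, *TGFBR2*, and *TGFBR3*, against 14.6% of all tested genes.

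**Figure D1:**
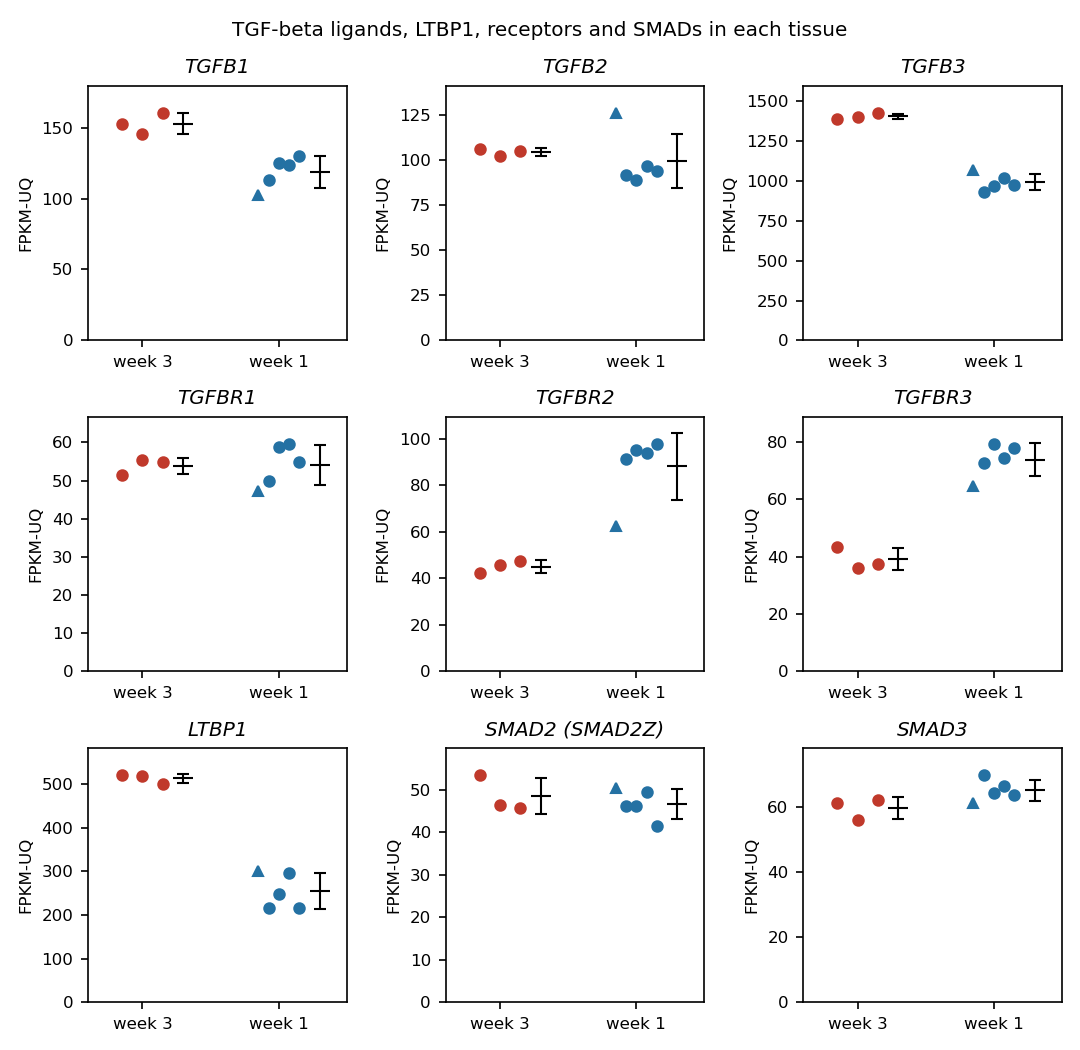
FPKM-UQ (vertical axes, starting at 0) of each of the 9 genes in every tissue, with week 3 in red at the left and week 1 in blue at the right, tissue 1-1 as a triangle, and the mean ± SD as a black bar (n = 3 and n = 5). The weeks are apart for *TGFB1*, *TGFB3*, *TGFBR2*, *TGFBR3*, and *LTBP1*, and tissue 1-1 is the highest week 1 tissue for *TGFB2* (125.9) and the lowest for *TGFBR2* (62.3).

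*TGFB3* (chromosome 5, 38669193 to 38684140, minus strand, positions as in the count table, whose build the submitters' processing notes give as GRCg6a) encodes the ligand best known from palate and limb development. Its expression was 1392, 1401, and 1426 FPKM-UQ in the week 3 tissues 3-1, 3-2, and 3-3, against 1068, 935, 972, 1019, and 978 in the week 1 tissues 1-1 to 1-5. The lowest week 3 tissue exceeded the highest week 1 tissue, and the 3 week 3 tissues lay closer together than the week 1 tissues. Week 3 tissues averaged 1406 ± 17.5 and week 1 tissues 994 ± 50.8 (SD over 3 and 5 tissues). A two-sided exact permutation of the tissues gave p = 0.0357, which is the lowest value possible with 3 tissues against 5. The log2 fold change was 0.49 ± 0.06 (SE, edgeR adjusted p = 2.7e-04), a rise of 1.40-fold with a 95% interval of 1.27 to 1.54. With 13177 to 27001 counts per tissue, this was the most deeply counted member.

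*TGFB1* (chromosome 32, 208994 to 283022, plus strand) encodes the ligand most often studied in fibrosis, and its chicken form has also been called TGF-beta-4. The week 3 tissues 3-1 to 3-3 were at 152.3, 145.5, and 160.1 FPKM-UQ, against 102.2, 113.1, 125.1, 123.4, and 130.0 in the week 1 tissues 1-1 to 1-5. All week 3 tissues exceeded all week 1 tissues, with tissue 1-1 the lowest. The log2 fold change was 0.35 ± 0.08 (SE, edgeR adjusted p = 0.0083), a rise of 1.27-fold (95% interval 1.13 to 1.44), and the exact two-sided permutation test of FPKM-UQ gave p = 0.0357. Without tissue 3-3 the adjusted p of *TGFB1* in the same edgeR test was 0.053 and the call was lost. The interval of *TGFB1* in the count table overlaps those of 10 other listed genes, 7 of them on the same strand, and the sources used here do not say how shared reads were counted, so its level is less certain than that of the other ligands.

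*TGFB2* (chromosome 3, 19449227 to 19512092, minus strand), the ligand that depends most on betaglycan, was at 106.3, 102.1, and 104.8 FPKM-UQ in week 3 tissues 3-1 to 3-3. In the week 1 tissues 1-1 to 1-5 it was at 125.9, 91.5, 89.1, 96.9, and 93.8. The weeks overlapped through tissue 1-1, since the other week 1 tissues were all below every week 3 tissue. The log2 fold change was 0.06 ± 0.11 (SE, edgeR adjusted p = 0.76), with a 95% interval of −0.18 to 0.29. Without tissue 1-1 it was 0.16 (adjusted p = 0.022, edgeR). That fit leaves out a tissue that stood out in the same data.

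*LTBP1* (chromosome 3, 31248689 to 31430390, minus strand) had the largest rise of the 9 genes. Its expression was 520.4, 517.7, and 501.0 FPKM-UQ in the week 3 tissues 3-1 to 3-3, against 300.5, 216.3, 247.3, 296.6, and 216.9 in the week 1 tissues 1-1 to 1-5. The lowest week 3 tissue was well above the highest week 1 tissue, and the week 1 values spread widely, with an SD of 41.3 around a mean of 255.5 (n = 5) against 10.5 around 513.0 (n = 3) at week 3. The log2 fold change was 0.99 ± 0.11 (SE, edgeR adjusted p = 8.8e-05), a rise of 1.99-fold (95% interval 1.68 to 2.35), and the exact two-sided permutation test of FPKM-UQ gave p = 0.0357. Leaving out any single tissue moved it no further than 0.94 to 1.06.

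*TGFBR2* (chromosome 2, 39748110 to 39810216, plus strand), the receptor that binds the ligand first, fell. It was expressed at 42.1, 45.6, and 47.4 FPKM-UQ in the week 3 tissues 3-1 to 3-3, against 62.3, 91.3, 95.3, 93.8, and 97.6 in the week 1 tissues 1-1 to 1-5. Tissue 1-1 lay between the week 3 tissues and the other 4 week 1 tissues, and the weeks did not overlap with or without it. The log2 fold change was −0.98 ± 0.13 (SE, edgeR adjusted p = 2.7e-04), which left 0.51-fold of the week 1 level (95% interval 0.42 to 0.62). Without tissue 1-1 it was −1.08 (adjusted p = 2.2e-12, edgeR).

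*TGFBR3* (chromosome 8, 14742786 to 14850068, plus strand), the betaglycan gene, was at 43.4, 36.2, and 37.6 FPKM-UQ in the week 3 tissues 3-1 to 3-3 and at 64.6, 72.4, 79.1, 74.3, and 77.9 in the week 1 tissues 1-1 to 1-5. Each week 3 tissue was below each week 1 tissue. The log2 fold change was −0.93 ± 0.09 (SE, edgeR adjusted p = 2.7e-05), leaving 0.53-fold of the week 1 level (95% interval 0.46 to 0.60), and this was the smallest p among the members. The exact two-sided permutation test of FPKM-UQ gave p = 0.0357 for *TGFBR2* and for *TGFBR3*.

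*TGFBR1* (chromosome 2, 55933772 to 55966770, plus strand), the type I receptor kinase also known as ALK5, was not called. The week 3 tissues 3-1 to 3-3 were at 51.5, 55.3, and 55.0 FPKM-UQ, and the week 1 tissues 1-1 to 1-5 were at 47.4, 50.0, 58.8, 59.5, and 54.9. The week 3 values lay inside the week 1 range. Its log2 fold change was −0.02 ± 0.08 (SE, edgeR adjusted p = 0.90) with a 95% interval of −0.20 to 0.16. The interval of *TGFBR1* in the count table overlaps that of 1 other gene on the same strand, *7SK*. That gene had 52 to 180 counts per tissue, against 704 to 998 for *TGFBR1*.

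Since the scaling of a tissue cancels in a ratio of 2 genes, ratios within each tissue were set side by side as a description. The ratio of *TGFBR2* to *TGFBR1* lay between 0.82 and 0.86 in week 3 tissues, against 1.31 to 1.83 in week 1 tissues. The ratio of *TGFBR3* to *TGFBR1* was 0.65 to 0.84 at week 3 and 1.25 to 1.45 at week 1. On the ligand side, *LTBP1* to *TGFB1* was 3.13 to 3.56 at week 3 and 1.67 to 2.94 at week 1, and *TGFB3* to *TGFB2* was 13.1 to 13.7 at week 3 and 8.48 to 10.9 at week 1. All 4 ratios kept the weeks apart, including the one that involves *TGFB2*, which overlapped by itself. Each ratio holds a gene whose weeks were already apart by itself, so the ratios restate the single genes and add no separate support. These ratios were chosen after the values had been seen.

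**Figure D2:**
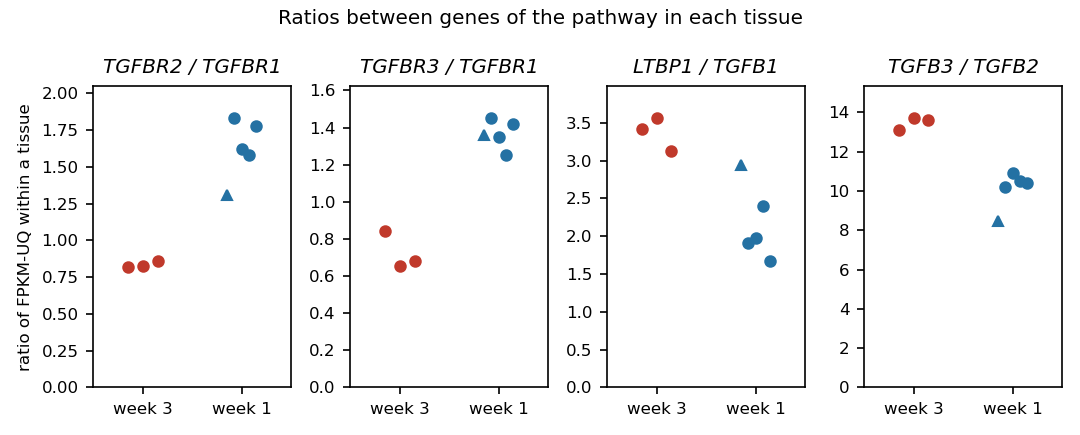
Ratio of the FPKM-UQ of a pair of genes within each tissue (vertical axes, starting at 0), with week 3 in red at the left and week 1 in blue at the right, and tissue 1-1 as a triangle. The week 3 tissues lie below the week 1 tissues for *TGFBR2* over *TGFBR1* (0.82 to 0.86 against 1.31 to 1.83) and *TGFBR3* over *TGFBR1*, and above them for *LTBP1* over *TGFB1* and *TGFB3* over *TGFB2*.

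The SMAD genes differed less. *SMAD2* (listed as *SMAD2Z*, chromosome Z, 1515751 to 1557446, plus strand) was at 53.4, 46.4, and 45.6 FPKM-UQ in the week 3 tissues 3-1 to 3-3 and at 50.3, 46.2, 46.2, 49.4, and 41.3 in the week 1 tissues 1-1 to 1-5. The weeks overlapped, and the log2 fold change was 0.04 ± 0.09 (SE, edgeR adjusted p = 0.78) with a 95% interval of −0.15 to 0.23. *SMAD3* (chromosome 10, 19226176 to 19287986, plus strand) was at 61.2, 56.1, and 62.3 FPKM-UQ in the week 3 tissues 3-1 to 3-3, against 61.5, 69.9, 64.4, 66.6, and 63.8 in the week 1 tissues 1-1 to 1-5. Only tissue 1-1 reached into the week 3 range. Its log2 fold change was −0.14 ± 0.07 (SE, edgeR adjusted p = 0.17) with a 95% interval of −0.29 to 0.01, and without tissue 1-1 it was −0.16 (adjusted p = 0.052, edgeR). Permuting the tissues exactly (two-sided, on FPKM-UQ) gave p = 0.57 for *SMAD2* and p = 0.071 for *SMAD3*, but p = 0.0357 for *SMAD3* on TMM-scaled CPM.

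*SMAD7B* (chromosome W, 2602132 to 2628700, plus strand) was counted thinly, with 41 to 80 counts per tissue. It was at 3.51, 3.79, and 3.48 FPKM-UQ in the week 3 tissues 3-1 to 3-3 and at 2.75, 5.11, 4.42, 5.42, and 3.84 in the week 1 tissues 1-1 to 1-5. The weeks overlapped, and the log2 fold change was −0.27 ± 0.23 (SE, edgeR adjusted p = 0.42) with a wide 95% interval of −0.77 to 0.22. A gene on W is carried by female embryos, and the W chromosome took 0.121% to 0.124% of the counts at week 3 and 0.125% to 0.132% at week 1. The part of this share in the values of *SMAD7B* was not tested.

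**Figure D3:**
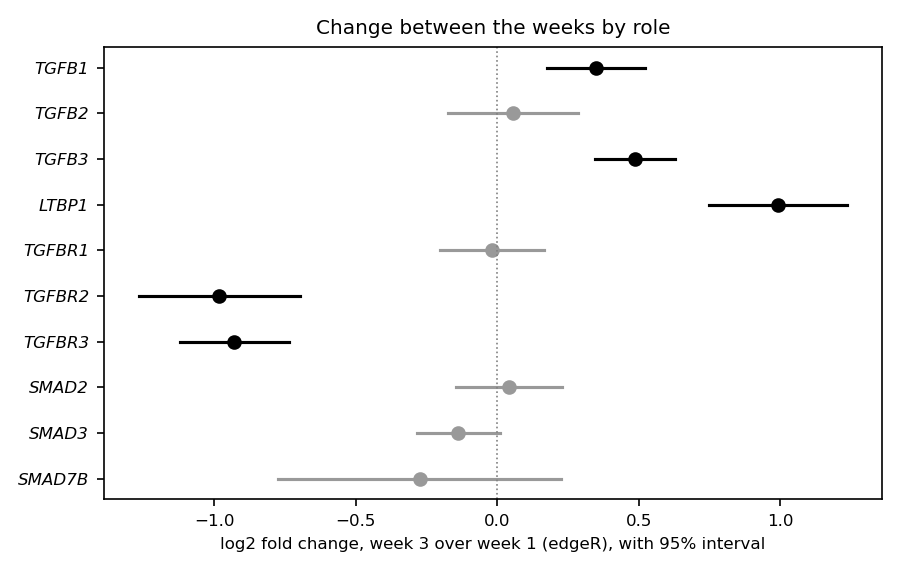
Log2 fold change of week 3 over week 1 (horizontal axis) of the 9 members and *SMAD7B*, with its 95% interval from edgeR's quasi-likelihood fit, black for genes with an adjusted p below 0.05 and grey for the rest. *TGFB1*, *TGFB3*, and *LTBP1* lie to the right of 0, *TGFBR2* and *TGFBR3* lie near −1, and the intervals of the SMAD genes, *TGFBR1*, and *TGFB2* span 0.

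Genes that hold or release latent TGF-beta moved in both directions. This list and those that follow were chosen with earlier results known, so their shares beside all genes are a description. Of 14 such genes listed, 9 were matched and tested, of which 4 rose and 1 fell, so that 55.6% were called beside 23.5% of all genes, with a median log2 fold change of 0.0045 beside −0.0065 over all genes tested. *THBS1*, a matrix protein that activates the latent ligand, averaged 1919 ± 22.3 FPKM-UQ at week 3 and 762.8 ± 108.0 at week 1 (SD, n = 3 and 5), a log2 fold change of 1.32 ± 0.10 (SE, edgeR adjusted p = 7.1e-06). The integrin genes *ITGB6* and *ITGAV*, whose products pair into a receptor that pulls the ligand free, also rose, with log2 fold changes of 1.26 (adjusted p = 3.3e-05, edgeR) and 0.50 (adjusted p = 2.9e-04, edgeR). *FBN1*, the fibrillin that anchors latent complexes in microfibrils, rose by 0.43 on the log2 scale (adjusted p = 0.0022, edgeR). *NRROS*, a myeloid anchor of latent TGF-beta, fell to 1.73 ± 0.394 FPKM-UQ at week 3, against 3.92 ± 0.796 at week 1 (log2 fold change −1.22, adjusted p = 0.0046, edgeR). Of 8 macrophage and leukocyte markers listed, 7 were also lower, beside 12.0% of all tested genes. Their summed FPKM-UQ was 50.2 to 54.3 at week 3 and 106.3 to 172.8 at week 1. None of the 8 was at 3 counts or fewer in every tissue, and their part in the fall of *NRROS* was not tested. *LTBP2*, named here after its values had been seen, was not called (log2 fold change −0.05, adjusted p = 0.88, edgeR), with 279.0 FPKM-UQ in tissue 1-1 and 154.5 to 174.0 in the other week 1 tissues. Without tissue 1-1 its log2 fold change was 0.14 (adjusted p = 0.036, edgeR), and that of the fibrillin gene *FBN2*, also named after its values had been seen, was −0.25 (adjusted p = 0.0042, edgeR), against −0.20 (adjusted p = 0.091, edgeR) with all tissues. The list then had 7 calls among 9 genes, 5 higher and 2 lower, beside 38.6% of all genes, and its median was 0.14.

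Of 15 listed co-receptors and regulators of the receptors, 13 were tested, 3 rose and none fell, a share of 23.1% beside the 23.5% of all genes, with a median log2 fold change of −0.02. *BAMBI*, a pseudoreceptor without a kinase, was at 13.9 ± 0.891 FPKM-UQ at week 3 and 7.30 ± 1.10 at week 1 (log2 fold change 0.92, adjusted p = 6.0e-04, edgeR). *SMURF2*, a ubiquitin ligase that works with SMAD7 on the receptor, had a log2 fold change of 0.77 (adjusted p = 3.8e-04, edgeR), and *CD109*, a co-receptor that promotes receptor turnover, one of 0.47 (adjusted p = 0.0035, edgeR). Without tissue 1-1, 6 of the 13 were called, 4 higher and 2 lower, beside 38.6% of all genes in that fit.

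Of 15 listed SMAD partners and nuclear regulators, 13 were tested, 4 rose and 2 fell, so that 46.2% were called beside 23.5% of all genes, with a median log2 fold change of 0.06. Those that rose were *SKIL* (log2 fold change 0.51), a SMAD corepressor that the pathway itself induces, *PMEPA1* (0.32), a membrane protein that sequesters SMAD2 and SMAD3, *ATF3* (0.31), a stress-induced transcription factor, and *TGIF1* (0.30), a homeodomain corepressor whose weeks overlapped. Those that fell were *RUNX2* (−1.03), an osteogenic factor expressed at only 2.20 ± 0.506 FPKM-UQ at week 3 and 4.42 ± 1.10 at week 1, and *CREBBP* (−0.43), a histone acetyltransferase. Their adjusted p-values ranged from 0.0040 for *SKIL* to 0.040 for *PMEPA1* (edgeR). Only *SKIL* and *CREBBP* were called whichever tissue was left out, and 2 of the 13 were called without tissue 3-1 or without tissue 3-2, where 14.9% and 14.6% of all genes were called. Without tissue 1-1, 8 of the 13 were called, 5 higher and 3 lower, beside 38.6% of all genes. *SMAD6*, the other inhibitory SMAD, was named after its values had been seen and was not called (log2 fold change 0.06, adjusted p = 0.68, edgeR).

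Of 30 classical target genes listed, 25 were tested, 8 rose and 3 fell, so that 44.0% were called beside 23.5% of all genes, and the median log2 fold change was 0.05. The largest rise was that of *TAGLN*, an actin-binding protein of smooth muscle, at 661.9 ± 9.52 FPKM-UQ at week 3 and 115.2 ± 30.0 at week 1 (2.51 ± 0.16 SE on the log2 scale, edgeR adjusted p = 1.8e-06). *CDKN2B*, which encodes the cell cycle inhibitor p15, had a log2 fold change of 2.37 (adjusted p = 2.9e-07, edgeR), and *ACTA2*, the smooth muscle actin, one of 2.04 (adjusted p = 4.6e-07, edgeR). *CTGF*, a matricellular protein taken from the row listed as *NOV* on chromosome 3, was at 634.9 ± 11.2 FPKM-UQ at week 3 and 203.5 ± 11.5 at week 1 (1.63 ± 0.06 SE on the log2 scale, edgeR adjusted p = 3.7e-08). This assignment rests on RefSeq synonyms alone and was not checked by sequence. Smaller rises were seen for the protease inhibitor *TIMP3* (log2 fold change 0.76), fibronectin *FN1* (0.51), periostin *POSTN* (0.49), and the cell cycle inhibitor *CDKN1A* (0.31, adjusted p = 0.025, edgeR). The call of *CDKN1A* was lost without tissue 1-2, 3-1, 3-2, or 3-3, with an adjusted p of up to 0.11 (edgeR).

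The collagen genes of the target list did not rise. *COL3A1* fell, with 2756 ± 47.1 FPKM-UQ at week 3 and 4920 ± 1060 at week 1 (−0.85 ± 0.16 SE on the log2 scale, edgeR adjusted p = 0.0031). *COL1A1*, *COL1A2*, and *COL5A1*, named after their values had been seen, had log2 fold changes of −0.26, −0.18, and −0.21 (adjusted p = 0.15, 0.35, and 0.12, edgeR). The other targets that fell were *HMGA2*, an embryonic chromatin protein (log2 fold change −1.59, adjusted p = 9.8e-05, edgeR), and the proteoglycan *VCAN* (−0.63, adjusted p = 0.027, edgeR). The call of *VCAN* was kept only without tissue 1-1 and was lost when any other single tissue was left out (adjusted p up to 0.10, edgeR). Without tissue 1-1, 21 of the 25 targets were called, 10 higher and 11 lower, beside 38.6% of all genes in that fit, and *COL1A1* and *COL1A2* were then among the lower ones (log2 fold changes −0.35 and −0.28).

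**Figure D4:**
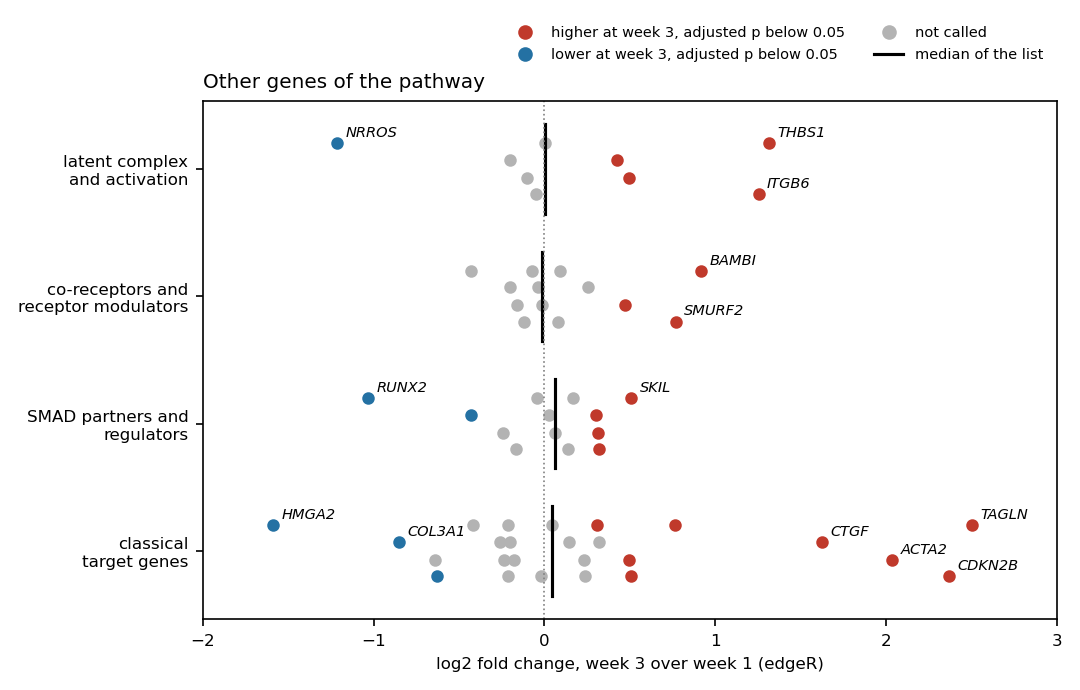
Log2 fold change of week 3 over week 1 (horizontal axis) of each tested gene of the 4 lists, red for called genes that were higher, blue for called genes that were lower, grey for genes not called, and a black bar at the median of the list. The medians lie close to 0 in all 4 lists, and *TAGLN*, *CDKN2B*, *ACTA2*, and *CTGF* reach the highest values, at 1.63 to 2.51.

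Markers of other cell types were summed in each tissue. The summed FPKM-UQ of 9 fibroblast markers was 22799 to 23473 at week 3 and 20302 to 31556 at week 1, with 5 of the 9 lower and 1 higher at the threshold above. Tissue 1-1 had the sum of 20302, and the other week 1 tissues had 28191 to 31556. Collagens made up most of this fibroblast sum, which therefore largely follows their expression. *COL1A1* alone was at 9914 to 10170 FPKM-UQ at week 3 and 8740 to 13576 at week 1. *COL1A2* was at 6965 to 7306 at week 3 and 5684 to 9172 at week 1. The summed level of 6 smooth muscle and pericyte markers was 2664 to 2695 at week 3 and 782.5 to 961.4 at week 1, but *ACTA2* was the only one of them that rose, and 2 fell. *COL1A1*, *COL1A2*, *COL3A1*, *POSTN*, *ACTA2*, and *CNN1* belong both to these marker lists and to the target list. Of 12 skeletal muscle markers 9 were matched, and their sum was 21817 to 22265 at week 3 and 22045 to 30380 at week 1. The weeks overlapped only through tissue 1-1, at 22045, since the other week 1 tissues had 22399 to 30380. Of the 9 muscle markers, 2 were lower and none higher. Over all tested genes 11.5% were higher and 12.0% lower, or 23.5% in either direction, and the counts of all 3 lists are read beside these shares. No marker of these 3 lists was at 3 counts or fewer in every tissue. Other lists were summed as well. The adipocyte sum was 297.8 to 305.6 at week 3 and 208.2 to 244.7 at week 1 (2 of 5 higher, none lower). Tendon and cartilage markers summed to 51.92 to 54.55 at week 3 and 65.28 to 90.42 at week 1 (2 of 8 higher, 2 lower). Endothelial markers summed to 67.2 to 75.0 at week 3 and 76.4 to 85.4 at week 1 (1 of 7 higher, 2 lower). Schwann and neuron sums overlapped. These counts are read beside the same shares. The part of the cell makeup in the changes of the ligand, receptor, and target genes was not tested.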

How the data were processed

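RNA from 3 week 3 and 5 week 1 tissues was sequenced on an Illumina NovaSeq. Per the submitters' processing notes, STAR 2.7.3a, Partek and the build GRCg6a (galGal6) were used, and the quantification step is not given in the sources used here. The authors deposited estimated counts per gene, 80.98% of them whole numbers, and a normalized signal called FPKM-UQ for 15394 genes, which equals the count plus 1 over a factor per tissue to within 0.000787%. Symbols were matched directly and then through RefSeq synonyms. The members and lists were chosen with earlier results of these data known. Counts were rounded and fitted with edgeR 4.0.16 (TMM, filterByExpr, R 4.3.3) on the week alone, with Benjamini-Hochberg adjustment over all genes. The standard error was the size of the log2 fold change over the square root of F, and 95% intervals used the fit's degrees of freedom. Single genes were also compared with exact two-sided permutation tests (scipy 1.17.1). Labels call the tissues replicates without saying whether they came from separate isolations. The p-values therefore measure the spread between the tissues sampled, which may not include that between isolations. Every member was named, of the pathway lists genes called in edgeR, and for each ligand the 3 genes most like it by Pearson's r. The fit was repeated with DESeq2 1.42.0, with factors from the upper quartile, without a filter and with a mean count of at least 10, with limma 3.58.1 on the log2 scale of FPKM-UQ (pseudocount 1, also with a minimum mean of 1, or pseudocount 0.1), the replicate number as a block, and each tissue left out in turn. The procedure was tested on simulated data. No sequences or transcript lengths were used.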

Additional observations from a re-analysis of the deposited data

Results flagged for a closer look

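In groups of 5, a tissue whose gap to its neighbour took a larger share of the whole range than Dixon's 95% critical value was looked at again. Chance alone gives this in about 1 of 20 groups. All 73 genes of the pathway held in the tables were examined at week 1 (the members, *SMAD7B*, the 4 lists, and the BMP SMADs), and 10 had such a tissue. In 9 of the 10 it was tissue 1-1. Tissue 1-1 was the highest for *TGFB2* (gap of 0.788 of the range), *LTBP2* (0.843), *CREBBP* (0.770), *EP300* (0.712), and *SMAD5* (0.928), and the lowest for *TGFBR2* (0.821), *COL3A1* (0.870), *COL5A1* (0.733), and *VCAN* (0.905). For *NRROS* the tissue was 1-2, the highest at a gap of 0.826. Genes of 1 tissue share its library, so these are not separate observations. Both members concerned kept the direction of their change without tissue 1-1. The log2 fold change of *TGFBR2* was −1.08 without it and −0.98 with all tissues, and the gene was called in both fits. That of *TGFB2* was 0.16 without it and 0.06 with all tissues. *TGFB2* was called only in the fit without it (adjusted p = 0.022 against 0.76, edgeR).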

How the results depend on the processing

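The 5 called members were called under each of the 8 alternative settings and with each tissue left out, except *TGFB1* without tissue 3-3. Across those alternative settings their log2 fold changes were 0.99 to 1.02 for *LTBP1*, 0.48 to 0.50 for *TGFB3*, 0.35 to 0.41 for *TGFB1*, −0.99 to −0.88 for *TGFBR2*, and −0.93 to −0.90 for *TGFBR3*. The fold change of *TGFBR1*, which was never called, changed sign with the replicate block (0.037) and with single tissues left out (−0.063 to 0.014), and that of *SMAD2* with single tissues left out (−0.039 to 0.085). Over all genes, 3367 were called, 2073 with the replicate block and 2119 to 5498 with each tissue left out. The SMAD partner list had 3 calls with the replicate block, and *CD109* and *VCAN* were then not called (adjusted p = 0.051 and 0.13, edgeR). Tissues 1-4 and 1-5 have no week 3 tissue of the same number, so in the block fit they add nothing to the difference between the weeks. That fit therefore compares the week 3 tissues with tissues 1-1 to 1-3 alone. The part of this in the lost calls was not tested. Tissues of the same number did not deviate together (correlations of 0.025, −0.010, and 0.003 for numbers 1, 2, and 3). These correlations cannot tell whether tissues of a number shared an isolation or handling, which the sources used here do not give. The block changed the call of no member. The depth limits *SMAD7B* most, with 41 to 80 counts.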

Other observations

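The BMP branch of the family signals through other SMADs, whose values were looked at after those of *SMAD2* and *SMAD3* had been seen. *SMAD1* was at 34.9 ± 1.21 FPKM-UQ at week 3 and 47.8 ± 5.71 at week 1 (SD, n = 3 and 5), with a log2 fold change of −0.47 ± 0.10 (SE, edgeR adjusted p = 0.0051) and no overlap between the weeks. *SMAD5* was also lower in every week 3 tissue than in any week 1 tissue but was not called (log2 fold change −0.25, edgeR adjusted p = 0.099), with 228.8 FPKM-UQ in tissue 1-1 and 169.8 to 174.1 in the other week 1 tissues. *SMAD9* was not called either, at 7.46 ± 0.835 FPKM-UQ at week 3 and 7.26 ± 1.31 at week 1.

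The genes whose log2(FPKM-UQ + 1) followed each ligand most closely over the 8 tissues, of 10548 other genes with a symbol and a mean of at least 1, were *TAGLN*, *SLC39A13*, and *THBS2* for *TGFB3* (Pearson's r of 0.999, 0.997, and 0.996). For *TGFB1* they were *PASK*, *CDKN1A*, and *BGLAP* (0.991, 0.988, and 0.986), and for *TGFB2* they were *RUFY3*, *KIDINS220*, and *GIT2* (0.982, 0.978, and 0.978). The points share the libraries and the week, and these values are a description with no test.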
